A study of Secale cereale x Triticum turgidum subsp. durum with 48 samples.

Results

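Glucose-6-phosphate dehydrogenase (G-6-PDH) was followed across the organs of triticale, a hybrid cereal of wheat and rye. Its members were all probe sets of the Affymetrix Wheat GeneChip whose identifiers begin with the wheat name of this enzyme, which gave 3 of the 61290 probe sets in the deposited table. AFFX-Ta_G-6-PDH_5_s_at, AFFX-Ta_G-6-PDH_M_s_at and AFFX-Ta_G-6-PDH_3_s_at read, by their names, the 5′ part, the middle and the 3′ part of the transcript. The ending _s_at marks probe sets whose probes match more than 1 similar transcript. Copies of the gene from the wheat and rye genomes, and isoforms close in sequence, may therefore add up in each value. How well the wheat probes read the rye copies was not checked. No other enzyme isoform was told apart, and the chromosomal position and sequence of the probe sets were not used here.

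G-6-PDH catalyses the first and rate-controlling step of the oxidative pentose phosphate pathway, which oxidises glucose 6-phosphate and yields NADPH and pentose phosphates. Plants hold cytosolic and plastid isoforms. In roots, seeds and other tissues that do not photosynthesise, this pathway is a main source of NADPH for nitrite reduction, ammonium assimilation and fatty acid synthesis. In illuminated chloroplasts the photosynthetic electron chain makes NADPH, and plastid G-6-PDH is held inactive through thioredoxin.

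The study profiled 48 arrays in 16 groups defined by organ and Zadoks stage, a numbered scale of cereal development. The seed groups were embryo with scutellum (n = 3), endosperm (n = 3), crease (n = 3), pericarp (n = 2) and epiderm (n = 2), all from the soft dough grain at stage 85 of the cultivar AC Certa. Crease is the vascular bundle of the ventral groove, epiderm the outer layer of the seed coat and pericarp the layer beneath it. The vegetative groups were root and coleoptile (n = 3 each, stage 7, cultivar AC Alta), stem internode at stages 21, 45, 59 and 75 (n = 3 each) and leaf at stages 13 and 23 (n = 3 each). Flag leaf, the last leaf below the ear, was sampled at stage 49 (n = 5) and, during senescence, at stages 75 and 85 (n = 3 each), and all stems and leaves were AC Certa. All plants grew in a controlled chamber without a treatment. RNA came from an RNeasy Plant kit for crease, epiderm, stem and leaf, from a guanidine hydrochloride method for embryo, endosperm and pericarp, and from a guanidine isothiocyanate method for root and coleoptile. All samples were labelled with a kit that amplifies RNA in a pair of cycles. The labels call the replicates biological without saying how many plants each held, so p-values measure the spread between these samples.

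Signals are values after robust multi-array averaging (RMA). Their log base is not given in the sources used here and was taken as 2, the usual output of RMA, so a difference of 1 is a 2-fold difference. Array medians lay between 4.87 and 5.03. The 95th percentile of the 64 reporter probe sets, which read foreign marker genes, was 5.99 and served as the background level. On single arrays, the share of tested probe sets above this level was 32.4% to 35.2%. The number of arrays limits the precision of each value. The 5′, middle and 3′ probe sets have different probes, so their levels were not ranked against each other. In bulk tissue, fewer cells of a type and less transcript per cell cannot be told apart.

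As group means, G-6-PDH signal was highest in root and lowest in the leaf groups and crease with all 3 probe sets. With the 3′ probe set, the root arrays read 10.57, 10.63 and 10.74, and the 17 leaf and flag leaf arrays ran from 6.74 through a median of 7.47 to 8.2. Every root array lay above every array of the other organs with each of the 3 probe sets. How many of all tested probe sets separate root as fully was not counted. The range of the 16 group means was 3.39 for the 3′, 3.66 for the middle and 3.73 for the 5′ probe set on the log2 scale. These are 10.48-fold and 12.6-fold for the 3′ and middle probe sets. The lowest 5′ group, flag leaf at stage 49, had 1 of 5 arrays above background, so its range is given as at least 10.9-fold, with lower arrays set to the background level, and the 3 ranges are not ranked. The median range of all tested probe sets that rose above background in some group was 2.58, and 33.8%, 29.6% and 28.7% of them ranged wider than the 3′, middle and 5′ probe sets. The SD within groups was 0.25, 0.31 and 0.30, against 1.11, 1.14 and 1.04 between group means. The moderated F test of any difference among groups gave limma adjusted p-values of 4.57e-21 (3′), 7.76e-19 (middle) and 1.24e-17 (5′), and 81.7% of all tested probe sets passed the same test.

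**Figure D1:**
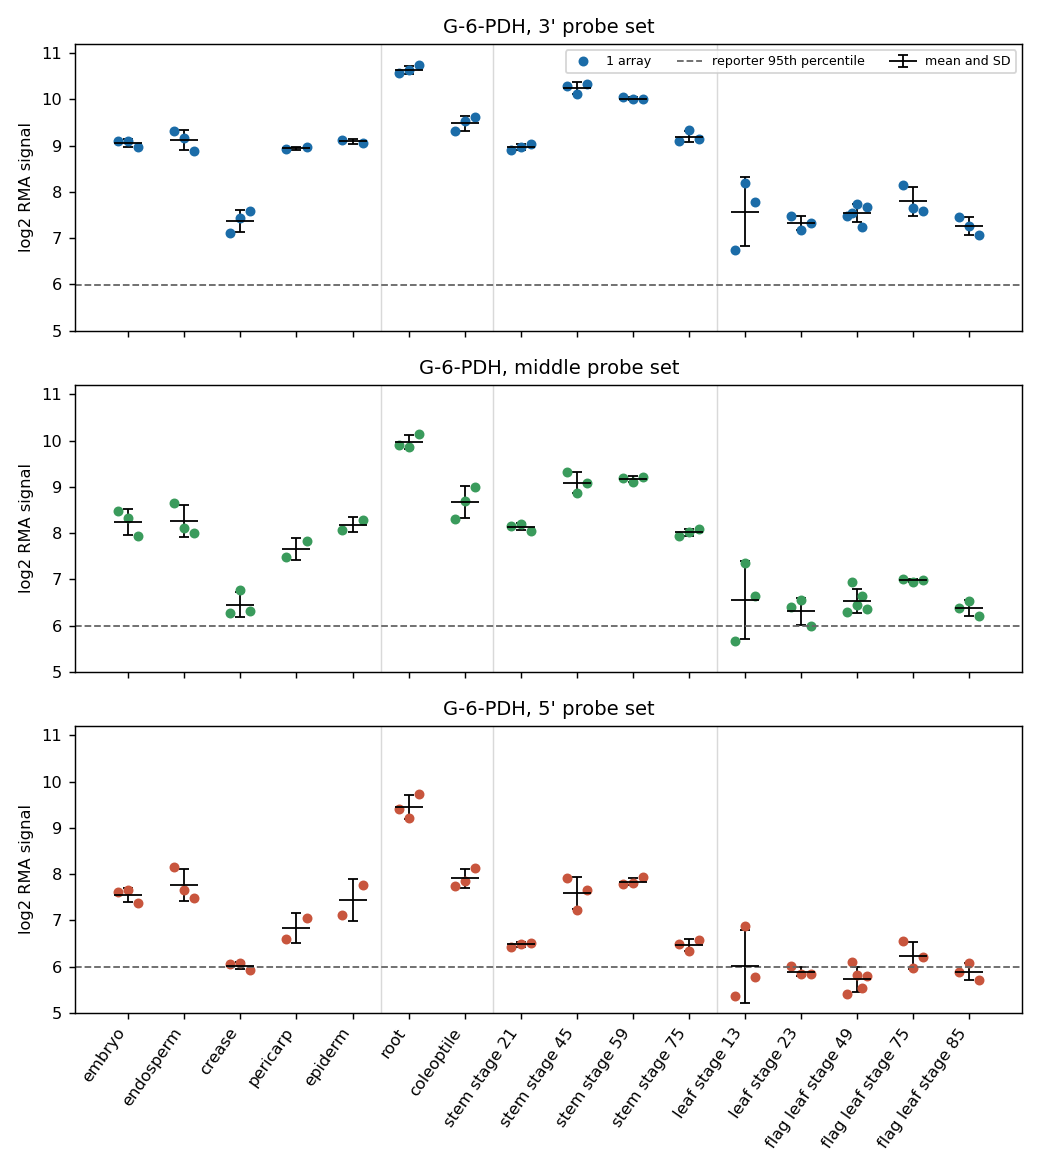
Signal of the 3 G-6-PDH probe sets (y axis, log2 RMA signal) in the 16 groups (x axis, seed tissues, then root and coleoptile, stem stages and leaf stages). Points are arrays, bars are means with SD and the dashed line is the background level of 5.99. The root arrays stand highest in each panel. The leaf and crease arrays stand lowest in the 3′ and middle panels, and in the 5′ panel leaf arrays overlap stem and pericarp arrays.

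The order of groups was similar, though not the same, in the 3 probe sets. With the 3′ probe set it ran, as means, from root (10.65) through stem at stages 45 (10.25) and 59 (10.02), coleoptile (9.49), stem at stage 75 (9.20), endosperm (9.12), epiderm (9.10), embryo (9.06), stem at stage 21 (8.97) and pericarp (8.95). After a gap came flag leaf at stage 75 (7.80), leaf at stage 13 (7.58), flag leaf at stage 49 (7.54), crease (7.37), leaf at stage 23 (7.33) and, last, flag leaf at stage 85 (7.26). Among the 15 pairs of neighbours in this order, 1 was called, at an adjusted p under 0.05 with a log2 difference of at least 1: pericarp over flag leaf at stage 75, by 1.15 (limma adjusted p = 5.16e-05). The middle probe set had no called neighbours, and the 5′ probe set had root over coleoptile. Stem at stages 45 and 75 stood at places 2 and 5 with the 3′ probe set, but at places 5 and 10 with the 5′ probe set. Across the 16 group means, Pearson correlations were 0.990 between the 3′ and middle, 0.930 between the middle and 5′, and 0.897 between the 3′ and 5′ probe sets, given as a description of probe sets that share the same arrays and transcript.

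Of all 120 pairs of groups, the 3′ probe set was called in 75, the middle in 72 and the 5′ in 64, where 17.6% of all tests over the 120 pairs were called. As many calls or more were made by 5.86%, 7.20% and 10.9% of all tested probe sets, and by 11.5%, 14.1% and 21.2% of those above background in some group. All 3 probe sets called 53 pairs and none called 35. The other 32 pairs were called by 1 or 2 probe sets, and 24 of these set a stem group against another organ. Among the 66 pairs without a stem group, the probe sets differed in 6. None of the 10 pairs of leaf groups was called by any probe set, nor any of the 6 pairs among embryo, endosperm, pericarp and epiderm. Of all tested probe sets, 0.0196% to 13.3% were called in the leaf pairs and 6.12% to 19.5% in those seed pairs.

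**Figure D2:**
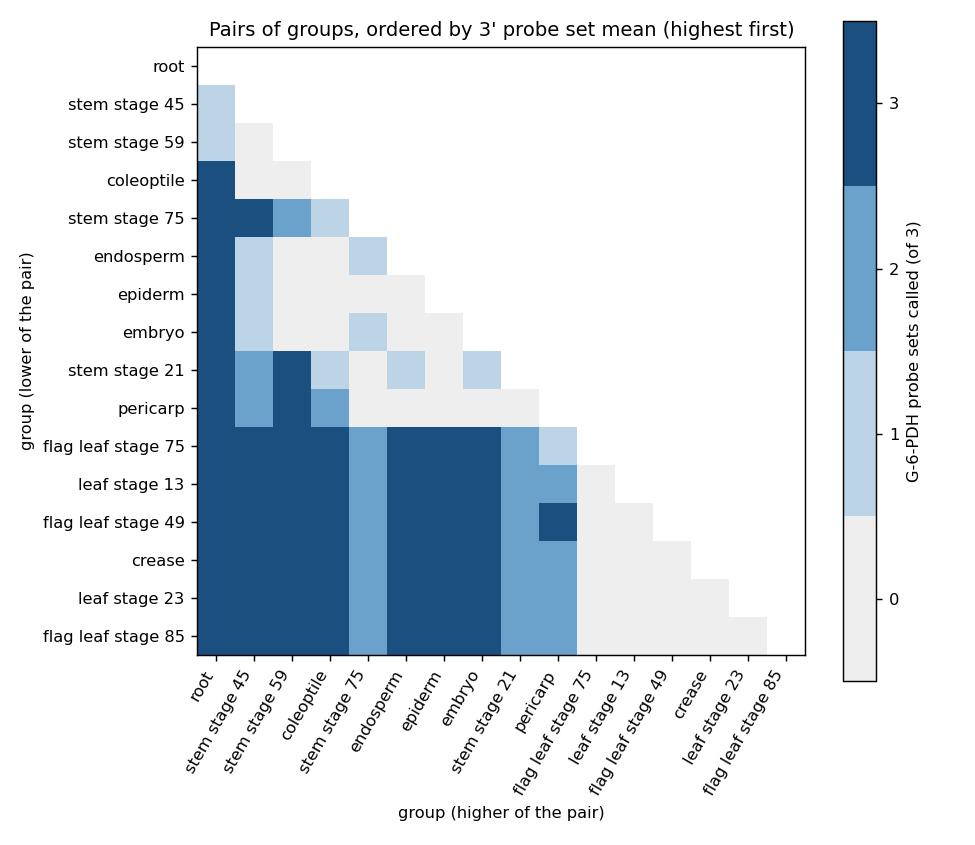
Number of G-6-PDH probe sets (0 to 3, colour) called in each of the 120 pairs of groups, with groups on both axes in the order of their 3′ probe set mean, highest first. The block at the lower right, which holds the leaf groups and crease, has no call. The columns of root, stem at stages 45 and 59, coleoptile, endosperm, epiderm and embryo reach 3 calls against each of these groups.

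Root against coleoptile compared the growing below-ground organ with the shoot sheath of seedlings, with cultivar, age and RNA method shared. With the 5′ probe set, root arrays read 9.41, 9.21 and 9.74, against 7.74, 7.85 and 8.14 in coleoptile. With the middle probe set, root arrays read 9.91, 9.85 and 10.15, against 8.31, 8.7 and 9 in coleoptile, and the 3′ values were 9.31, 9.53 and 9.62 in coleoptile. No root array overlapped a coleoptile array, which was not counted over all probe sets. Root exceeded coleoptile by 1.16 ± 0.20 (SE) with the 3′, 1.3 ± 0.24 with the middle and 1.54 ± 0.24 with the 5′ probe set, or 2.23-fold, 2.46-fold and 2.91-fold. All 3 were called (limma adjusted p = 1.07e-05, 3.50e-05 and 1.56e-06), where 13.5% of all tested probe sets were called. With arrays centred on the actin, ef1a and gapdh control probe sets, the 3′ and middle differences were 0.85 and 0.99, under the fold limit.

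Against the other groups, root was called higher with the 5′ probe set in all 15 pairs, and with the 3′ and middle probe sets in 13 of 15. In these pairs, 13.5% to 23.9% of all tested probe sets were called in either direction. The exceptions were stem at stages 45 and 59. Root exceeded them by 0.40 and 0.63 with the 3′ and by 0.88 and 0.80 with the middle probe set, but by 1.86 and 1.61 with the 5′ probe set. Root exceeded the 5 leaf groups by 2.85 to 3.39 with the 3′ probe set and the 4 seed groups other than crease by 1.52 to 1.70. In each comparison of root with a group other than coleoptile, organ, cultivar, stage and RNA method cannot be told apart. Within the 34 arrays of the RNeasy method alone, all AC Certa, signal ran from 6.74 to 10.34 (3′), 5.67 to 9.31 (middle) and 5.36 to 7.93 (5′), against 6.74 to 10.74, 5.67 to 10.15 and 5.36 to 9.74 over all 48 arrays.

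In stem internodes, G-6-PDH signal was higher at stages 45 and 59, around booting and ear emergence, than at stages 21 and 75. The 3′ probe set read 8.9, 8.98 and 9.03 at stage 21, then 10.3, 10.11 and 10.34 at stage 45, 10.05, 10.01 and 10 at stage 59, and 9.11, 9.34 and 9.14 at stage 75. The arrays of stages 45 and 59 all lay above those of stages 21 and 75, a separation not counted over all probe sets. The 5′ probe set followed the same course, with means of 6.48 ± 0.05, 7.60 ± 0.34, 7.84 ± 0.08 and 6.47 ± 0.13 (SD, n = 3 each), and the middle probe set had means of 8.14 ± 0.08, 9.09 ± 0.22, 9.17 ± 0.06 and 8.02 ± 0.08 (SD, n = 3 each).

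G-6-PDH was higher at stage 45 than at stage 21 by 1.28 ± 0.20 (SE; limma adjusted p = 2.31e-06) with the 3′ and by 1.12 ± 0.24 (adjusted p = 2.85e-04) with the 5′ probe set. Both were called, where 12.6% of all tested probe sets were, and the middle difference of 0.95 ± 0.24 passed the adjusted p (0.00195) but not the fold limit. The 5′ call rests on the stage 45 replicate 1: without it the difference was 0.96. Without the stage 45 replicate 2 the middle difference was 1.06 and passed both limits. From stage 45 to stage 59 no probe set was called, with differences of −0.23, 0.08 and 0.24 for the 3′, middle and 5′ probe sets, where 3.04% of all tested probe sets were called. The 95% intervals of these differences reached from −0.63 to 0.73.

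At stage 75 G-6-PDH fell below stage 59 by 1.37 ± 0.24 (SE) with the 5′ (limma adjusted p = 1.23e-05) and by 1.15 ± 0.24 with the middle probe set (adjusted p = 1.89e-04), where 14% of all tested probe sets were called. The 3′ difference of −0.82 ± 0.20 (adjusted p = 0.00117) did not reach the fold limit. No stage 75 array overlapped stage 59 with any probe set, which was not counted over all probe sets. Under centring on actin, ef1a and gapdh, the middle difference was −0.998, just under the limit. Stages 75 and 21 were not called apart, with differences of 0.23 (3′), −0.12 (middle) and −0.01 (5′) and intervals within −0.61 to 0.63, while 17.2% of all tested probe sets were called there.

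In leaves, the signal stayed low at each stage. With the 3′ probe set, leaf arrays read 6.74, 8.2 and 7.79 at stage 13 and 7.47, 7.18 and 7.33 at stage 23. Flag leaf read 7.47, 7.55, 7.75, 7.25 and 7.68 at stage 49, then 8.16, 7.65 and 7.59 at stage 75 and 7.45, 7.26 and 7.06 at stage 85. With the 3′ and middle probe sets, all arrays of flag leaf at stage 85 lay below those of flag leaf at stage 75, and all arrays of flag leaf at stage 75 lay above those of leaf at stage 23. With the middle probe set, flag leaf at stage 75 also lay wholly above flag leaf at stage 49. The other pairs of leaf stages overlapped with these probe sets, and all pairs did with the 5′ probe set. Separation of leaf stages was not counted over all probe sets. With the 5′ probe set, 6 of 17 leaf arrays lay above background, and with the middle probe set 15 of 17, so the 5′ differences between leaf stages are largely differences near background.

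No step between leaf stages was called with any G-6-PDH probe set. The share of all tested probe sets called was 1.97% for stage 23 against 13, 2.27% for flag leaf at stage 49 against leaf at stage 23 and 4.18% for flag leaf at stage 75 against 49. It was 0.0196% for flag leaf at stage 85 against 75 and 4.57% for stage 85 against 49. Among these 5 steps, the widest 3′ and middle differences were −0.54 (95% interval −0.95 to −0.14) with the 3′ and −0.61 (−1.09 to −0.12) with the middle probe set, both for flag leaf at stage 85 against 75, with limma adjusted p-values of 0.662 and 0.752. For flag leaf at stage 75 against 49 the middle difference was 0.44 (0.01 to 0.88, adjusted p = 0.148), and the stage 75 arrays of 7.01, 6.95 and 6.98 all lay above the stage 49 arrays, which ran from 6.3 to 6.94. Over all 10 pairs of leaf groups, the widest middle difference was flag leaf at stage 75 over leaf at stage 23, by 0.67 (adjusted p = 0.0373), under the fold limit.

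Leaf at stage 13 was the most variable group. Its SD was 0.75 with the 3′, 0.85 with the middle and 0.78 with the 5′ probe set, where no other group exceeded 0.31, 0.35 and 0.45. Replicate 1 was the lowest and replicate 2 the highest with each probe set, at 5.67 and 7.36 with the middle and 5.36 and 6.88 with the 5′ probe set. This group held 57.8%, 48.3% and 42.2% of the summed squared deviations within groups for the 3′, middle and 5′ probe sets. The fit pools the spread over all groups, so this group enters the SE, interval and p-value of each comparison, also those without it. With the 3′ probe set stem SDs ran from 0.03 to 0.13, against 0.25 pooled within groups. Over all probe sets its arrays correlated with each other at mean values of 0.961 to 0.967, close to the 0.957 to 0.969 of leaf at stage 23, against 0.977 or more in each other group. Without replicate 1, stage 23 minus stage 13 was −0.67 with the 3′ (limma adjusted p = 0.00746) and −0.69 with the middle probe set (adjusted p = 0.0447), under the fold limit in both. Without replicate 2 the difference was 0.06 and 0.16.

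Stem exceeded leaf of a similar stage most clearly with the 3′ and middle probe sets. All 12 stem arrays lay above all 17 leaf arrays with these probe sets, while the 5′ arrays overlapped, at 6.33 to 7.93 in stem and 5.36 to 6.88 in leaf. Of the 20 pairs of a stem and a leaf group, the 3′ and middle probe sets were called in 20 and the 5′ in 10. In these pairs, 9.24% to 20.4% of all tested probe sets were called in either direction. How many of all probe sets separate the stem and leaf arrays fully was not counted. The 18SrRNA control probe set, which reads ribosomal RNA, moved with the same division, at 13.15 to 13.32 over the 12 stem arrays, against 5.15 to 10.37 over the 36 other arrays, and its part in the differences between stem and other organs was not tested.

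At stage 45 stem exceeded flag leaf at stage 49 by 2.71 ± 0.18 (SE), 2.55 ± 0.21 and 1.87 ± 0.21 with the 3′, middle and 5′ probe sets, or 6.54-fold and 5.87-fold with the 3′ and middle probe sets. Flag leaf at stage 49 had 1 of 5 arrays above background with the 5′ probe set, so that difference is at least 2.996-fold. All 3 were called (limma adjusted p = 6.46e-16, 6.41e-13 and 1.41e-09), where 18.8% of all tested probe sets were. Stem at stage 21 exceeded leaf at stage 23 by 1.64 ± 0.20 and 1.83 ± 0.24 with the 3′ and middle probe sets, both called (adjusted p = 1.35e-08 and 7.28e-08), where 15.2% of all tested probe sets were. The 5′ difference was 0.59 ± 0.24 (adjusted p = 0.0508), with 6.43, 6.49 and 6.52 in stem and 6.01, 5.83 and 5.84 in leaf. At stage 75 stem exceeded flag leaf by 1.40 ± 0.20 (3′, adjusted p = 7.96e-07) and 1.04 ± 0.24 (middle, adjusted p = 0.00101), both called, where 9.77% of all tested probe sets were. The middle call was lost without the stem stage 75 replicate 3 (a difference of 1, at the limit) and under quantile normalization (0.98). The 5′ difference at stage 75 was 0.23, with an interval of −0.26 to 0.71.

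The stem change late in development differed from the flag leaf change. Flag leaf at stage 75 stood 0.26 (3′), 0.44 (middle) and 0.52 (5′) above flag leaf at stage 49, while stem at stage 75 stood 0.82, 1.15 and 1.37 below stem at stage 59. The earlier stage thus differs between the organs. The flag leaf change minus the stem change was 1.08 ± 0.27 (SE), 1.60 ± 0.32 and 1.89 ± 0.32, all called (limma adjusted p = 0.00230, 2.21e-04 and 1.64e-05), where 13.1% of all tested probe sets were called. With the 5′ probe set, 2 of 3 flag leaf arrays at stage 75 and 1 of 5 at stage 49 lay above background, so the 5′ flag leaf change lies near that level. Under centring on the hybridization spikes, the 3′ difference was 1.75. The 3′ call was lost without the flag leaf stage 75 replicate 1, at 0.90, and under quantile normalization, at 0.98.

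**Figure D3:**
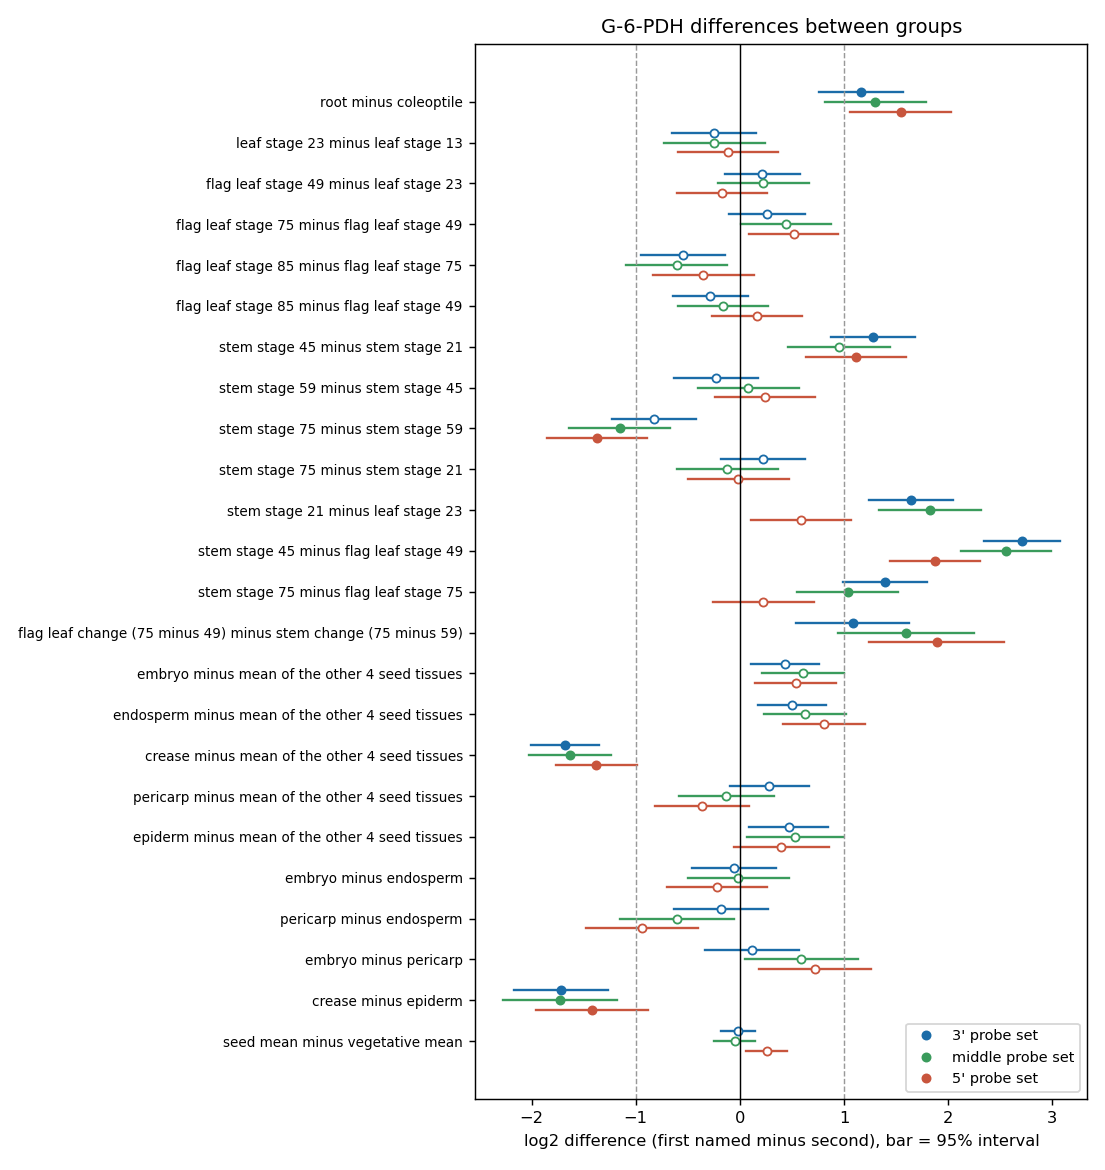
Log2 differences in G-6-PDH signal (x axis, first named group minus the second) for the 24 comparisons (y axis) and the 3 probe sets (colour). Bars are 95% intervals, filled points are called and dashed lines mark a log2 difference of 1. Root over coleoptile, stem at stage 45 over flag leaf at stage 49 and crease under the other seed tissues are filled for all 3 probe sets, and no leaf step is filled.

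In the grain, crease stood apart from the other seed tissues. With the 3′ probe set, crease arrays read 7.11, 7.43 and 7.58, against 9.11, 9.11 and 8.97 in embryo, 9.31, 9.17 and 8.89 in endosperm, 8.92 and 8.97 in pericarp, and 9.13 and 9.06 in epiderm. The middle and 5′ crease arrays read 6.27, 6.76 and 6.31, and 6.05, 6.07 and 5.93. No crease array overlapped any array of the other 4 tissues with any probe set, a separation not counted over all probe sets. Crease was lower than their mean by 1.68 ± 0.16 (SE), 1.63 ± 0.19 and 1.38 ± 0.19 with the 3′, middle and 5′ probe sets, or 3.21-fold, 3.10-fold and 2.60-fold. All 3 were called (limma adjusted p = 2.25e-11, 4.72e-09 and 1.48e-07), where 14.9% of all tested probe sets were called.

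Crease and epiderm shared the RNA method, and there crease was lower by 1.72 (3′), 1.73 (middle) and 1.42 (5′), all called (limma adjusted p = 3.49e-08, 1.40e-06 and 3.24e-05), where 18.2% of all tested probe sets were called. Crease was not called apart from any of the 5 leaf groups with any probe set, where 23.9% to 26% of all tested probe sets were called. Its 5′ signal was at background, with 2 of 3 arrays above 5.99, so the 5′ difference from the other seed tissues is bounded by that level. Purity of the dissected crease was not tested, because no seed marker gene could be matched to a probe set.

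Embryo, endosperm, pericarp and epiderm lay close together. With the 3′ probe set, their group means ran from 8.95 to 9.12. Embryo exceeded the mean of the other 4 seed tissues by 0.43, 0.61 and 0.54 with the 3′, middle and 5′ probe sets (limma adjusted p = 0.0325, 0.0110 and 0.0246), and endosperm by 0.50, 0.63 and 0.81 (adjusted p = 0.0193, 0.0159 and 0.00151). None reached the fold limit, where 16.4% and 7.06% of all tested probe sets were called for embryo and endosperm, and the mean they were set against includes crease. Pericarp and epiderm were not called with any probe set, where 7.97% and 11.5% of all tested probe sets were called. By the adjusted p alone, 37.5%, 22.8%, 18.8% and 25.6% of all tested probe sets passed for embryo, endosperm, pericarp and epiderm, and of the G-6-PDH probe sets 3, 3, 0 and 0 did.

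Pericarp differed from endosperm and embryo most at the 5′ end. The 5′ probe set read 6.6 and 7.06 in pericarp, against 8.16, 7.65 and 7.49 in endosperm. These arrays did not overlap, which was not counted over all probe sets. The difference was −0.94 ± 0.27 (SE, limma adjusted p = 0.0133), under the fold limit, while the middle and 3′ differences were −0.60 and −0.18. Without pericarp replicate 2 the 5′ difference was −1.17, given as a size only, since pericarp then had no replicates. Without endosperm replicate 3 it was −1.08 and was called. Embryo against pericarp gave 0.72 (adjusted p = 0.0342) with the 5′, 0.59 with the middle and 0.12 with the 3′ probe set. Embryo against endosperm gave −0.06 (3′), −0.01 (middle) and −0.22 (5′), with intervals within −0.70 to 0.47. In each of these 3 comparisons no probe set was called, where 6.12%, 18.8% and 18% of all tested probe sets were called for pericarp against endosperm, embryo against pericarp and embryo against endosperm. Epiderm lay closer to endosperm at the 5′ end. Endosperm minus epiderm was 0.33 with the 5′ probe set (limma adjusted p = 0.525), not called, where 8.22% of all tested probe sets were.

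Averaged over groups, seed and vegetative organs did not separate. The mean of the 5 seed groups minus that of the 11 vegetative groups was −0.01 (95% interval −0.18 to 0.15) with the 3′, −0.05 (−0.24 to 0.15) with the middle and 0.26 (0.06 to 0.45) with the 5′ probe set. None was called, where 14.3% of all tested probe sets were. Both sides hold high and low groups, and the value depends on which groups enter. With crease left out of the seed mean, a setting chosen after seeing the data, it was 0.32, 0.28 and 0.53. A further unplanned setting, with the RNeasy groups alone on both sides, changed no sign or call for the 3 probe sets. Over all alternatives the values ran from −0.20 to 0.32 (3′), −0.23 to 0.28 (middle) and 0.08 to 0.53 (5′).

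The probe sets disagreed mainly in stem, and the disagreement lay at the 5′ end. The middle minus 5′ signal of G-6-PDH was 1.29 to 1.73 (median 1.48) over the 12 stem arrays, against 0.15 to 1.1 (median 0.57) over the 36 other arrays. These ranges do not overlap. The 3′ minus middle signal did overlap, at 0.74 to 1.32 in stem and 0.59 to 1.44 elsewhere. The 3′ minus 5′ signal was 2.07 to 3.01 (median 2.50) in stem, against 1 to 2.32 (median 1.49) elsewhere, and 9 of 12 stem arrays lay above all other arrays.

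Other wheat genes that the chip reads at both ends were set beside this. Sucsyn, sucrose synthase by its name, had a 3′ minus 5′ signal of 5.95 to 7.51 in stem, against 3.65 to 5.49 in the other arrays, with no overlap, although its 5′ probe set lay at or below background on 28 arrays. Ubiquitin, the protein tag of proteolysis, had −1.6 to −1.23 in stem, against −3.09 to −1.44 elsewhere, with 9 of 12 stem arrays above all others. CYP86-TA, actin, ef1a and gapdh overlapped, and the 3′ probe sets of actin, ef1a and gapdh lay at or below background on 47 or 48 arrays. The 18SrRNA signal, as given above, was also higher on every stem array than on any other array. Stem RNA also had a second cleanup, per the labels. The part of ribosomal RNA, labelling or cleanup in the stem results was not tested. The lower 5′ signal touches each 5′ comparison of stem with another organ. Comparisons between stem stages stay within the organ, but the G-6-PDH 3′ minus 5′ signal moved there too. It was 2.07 to 2.26 at stage 59 and 2.56 to 3.01 at stage 75. In 2 of the 6 pairs of stem stages the probe sets differed in their calls.

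**Figure D4:**
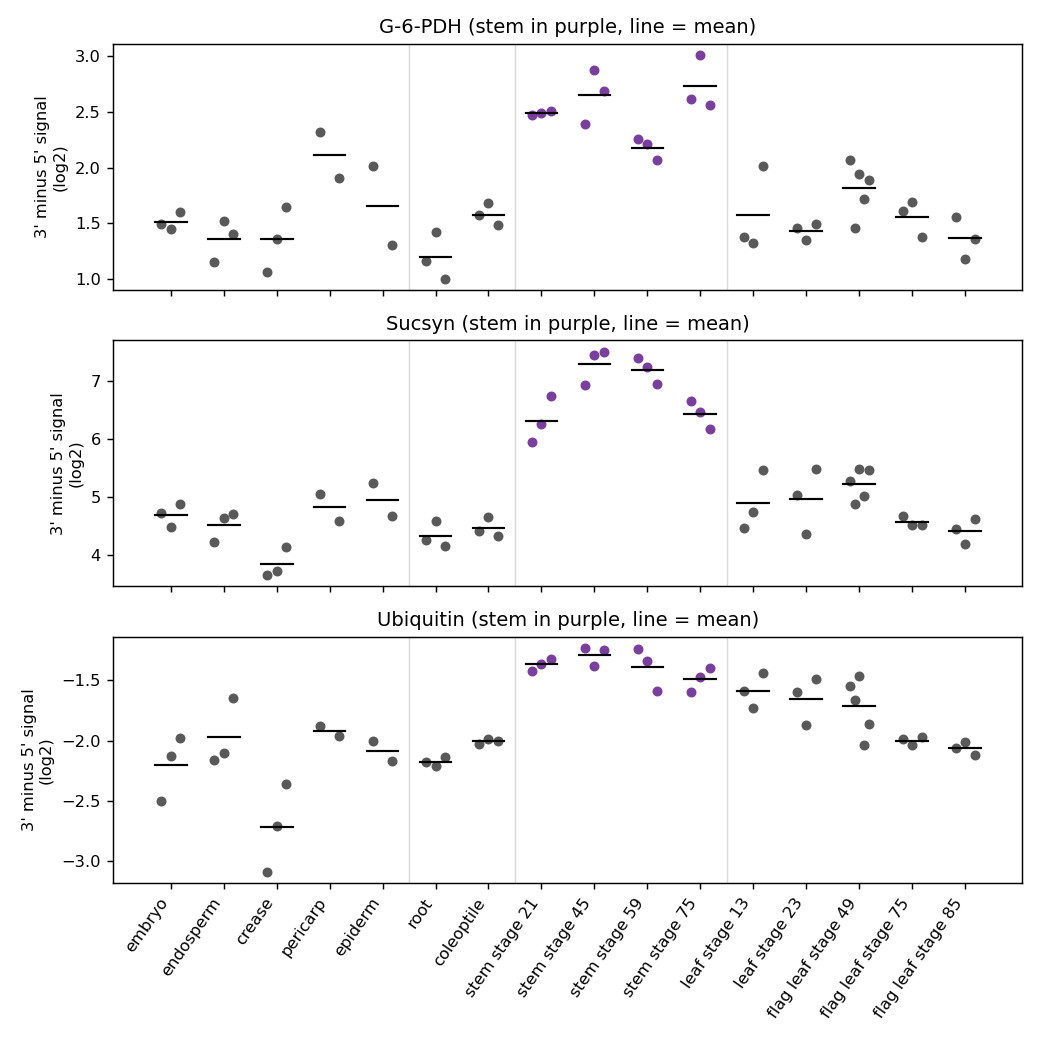
Difference between the 3′ and the 5′ probe set signal (y axis, log2) on each array for G-6-PDH, Sucsyn and Ubiquitin in the 16 groups (x axis). Points are arrays, lines are group means and stem arrays are purple. The stem arrays reach the highest differences for each of the 3 genes, and for Sucsyn they do not overlap the other arrays.

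Genes of the pathway and its surroundings were looked up by symbol. Of the lists drawn up for the oxidative pentose phosphate pathway, other NADPH sources, nitrogen assimilation, fatty acid synthesis, redox enzymes and glycolysis, 4 probe sets could be matched, since 1273 probe sets had a gene symbol and 19 of these were not a LOC number. They were GAPN, CAT1 (2 probe sets) and PFK. PFK, phosphofructokinase of glycolysis, lay below background in all groups, at group means of 2.83 to 4.24, and the second CAT1 probe set exceeded background in 1 of 16.

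GAPN, the non-phosphorylating glyceraldehyde-3-phosphate dehydrogenase, which makes NADPH in the cytosol, was lower in root than in coleoptile, where G-6-PDH was higher. Its group means were 4.51 ± 0.20 in root, below background, and 9.73 ± 0.41 in coleoptile (SD, n = 3 each). No root array exceeded background, so GAPN was at least 13.3-fold lower in root (limma adjusted p = 1.67e-20). The stem stages had GAPN means of 10.26 to 11.37, and the leaf stages 11.43 to 11.83. In stem GAPN was lower at stage 45 than at stage 21 by 1.06 (adjusted p = 8.05e-04), where G-6-PDH was higher. Stem at stage 45 minus flag leaf at stage 49 was −1.52 for GAPN (adjusted p = 2.85e-07), and at stage 75 stem minus flag leaf was −1.24. Other GAPN differences were small where G-6-PDH differed: 0.21 for stem at stage 75 minus 59 and −0.06 for stem at stage 21 minus leaf at stage 23. The shares of all tested probe sets called in these comparisons, and in those of CAT1, are given above with G-6-PDH. In the grain, GAPN arrays in crease ran from 5.21 to 6.13, with 1 of 3 above background, and overlapped those of embryo (5.67 to 6.65) and epiderm (5.64 to 6.51). Endosperm and pericarp were higher, with GAPN means of 7.65 and 9.03.

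CAT1, a catalase, which breaks down hydrogen peroxide, had its highest group means in leaf, at 13.32 to 13.83. It was 4.55 ± 0.06 in root, below background, and 11.30 ± 0.35 in coleoptile (SD, n = 3 each). In stem it was lower at stage 45 than at stage 21 by 3.0 (limma adjusted p = 2.88e-14) and higher at stage 75 than at stage 59 by 3.13 (adjusted p = 5.63e-15), each opposite in sign to G-6-PDH. Over the 16 group means, the Pearson correlations with the 3′, middle and 5′ G-6-PDH probe sets were −0.41, −0.45 and −0.63 for GAPN and −0.50, −0.53 and −0.62 for CAT1, given as a description with no test. For the second CAT1 probe set they were −0.78, −0.78 and −0.70, and for PFK 0.16, 0.13 and −0.20, both at signals near or below background.

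The probe sets most like G-6-PDH were ranked by the lowest of their 3 Pearson correlations with the G-6-PDH probe sets over the 16 group means. Among 31268 probe sets above background in some group, 5 exceeded 0.9 and the 10 highest ran from 0.883 to 0.931, while the median was −0.04. The first was Ta.706.1.S1_s_at (LOC542778), with correlations of 0.931 to 0.987. Its group mean was 12.03 in root, 11.39 in stem at stage 45 and 8.96 in crease, with 8.39 to 8.94 in the leaf groups. Its range of group means, 3.64, was about that of G-6-PDH.

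Ta.6402.2.A1_a_at and Ta.22952.1.S1_at followed, with lowest correlations of 0.928 and 0.920 and smaller ranges of 1.67 and 1.14. The probe set with the widest range among the 10, 7.42, was TaAffx.59282.1.S1_x_at, at 10.93 in root and, below background, 3.5 in flag leaf at stage 49. A pair of probe sets of LOC542971, Ta.7450.1.S1_x_at and Ta.7450.1.S1_at, stood at places 7 and 10. Of the 10, 9 had their highest group mean in root, as did G-6-PDH, and Ta.23710.3.S1_a_at had it in stem at stage 45. Because the 10 were chosen by correlation with G-6-PDH, a shared root peak largely follows from that choice. Ranked by Spearman correlation, 4 of the 10 stayed among the 10 highest. The 16 means share arrays, cultivars and RNA methods, and the likeness says nothing of function.

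**Figure D5:**
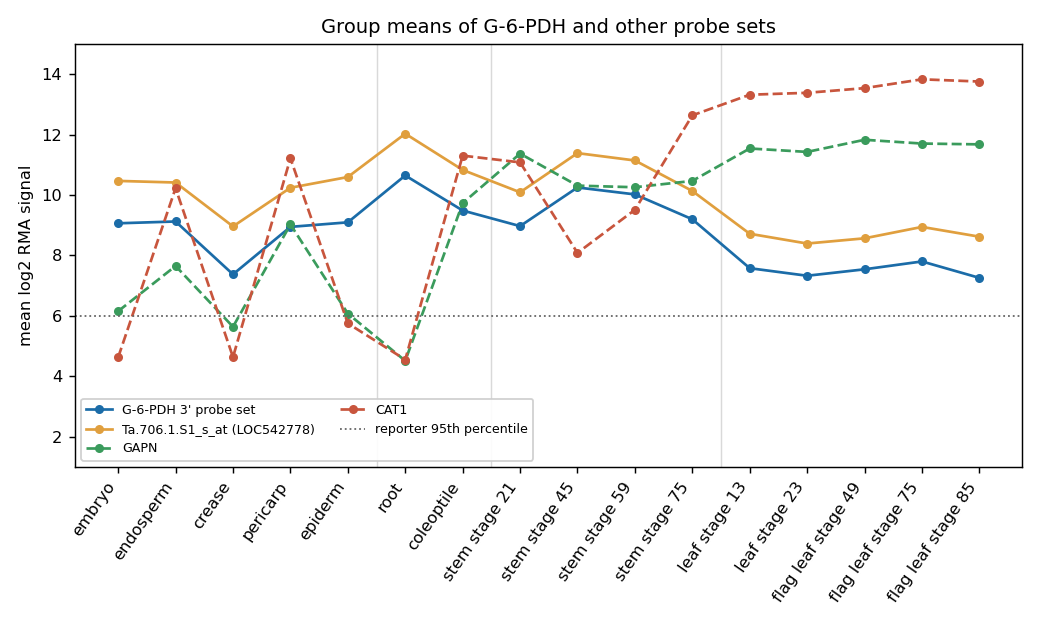
Group means (y axis, log2 RMA signal) over the 16 groups (x axis) for the 3′ probe set of G-6-PDH, the most alike probe set Ta.706.1.S1_s_at, GAPN and CAT1. The dotted line is the background level of 5.99. Shapes and not heights are comparable between probe sets: G-6-PDH and Ta.706.1.S1_s_at are highest in root and low in leaf and crease, while GAPN and CAT1 are below background in root and high in leaf. Crease means of GAPN and CAT1 are below background too, as are those of CAT1 in embryo and epiderm.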

How the data were processed

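The authors deposited 1 table of log2 values per probe set and array, made with RMA per the submitters' processing notes. The sources used here do not name the RMA software or its background correction, and the log base was taken as 2. Because RMA equalises the arrays' distributions, a shift common to nearly all transcripts is removed.

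Groups came from tissue and stage labels. limma 3.58.1 in R 4.3.3 fitted group means to all 48 arrays at once, two-sided, with Benjamini-Hochberg adjustment within each comparison over 61140 probe sets (61115 wheat probe sets plus 25 control probe sets named for wheat genes). Calls needed an adjusted p under 0.05 and a log2 difference of at least 1. Non-overlap of arrays between groups was not counted over all probe sets. The named genes were the G-6-PDH probe sets, the other wheat genes on control probe sets, listed genes that matched a symbol, and the 10 probe sets most alike by the lowest Pearson correlation. Their values are given in part. Members, lists and tests were chosen with earlier results of these data known. No tissue marker matched a symbol, so tissue labels were not checked. The fit was tested on simulated data. Alternatives covered thresholds, centring, normalization, filters, variance models, a replicate block and each array left out.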

Additional observations from a re-analysis of the deposited data

Results flagged for a closer look

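The late change in flag leaf differed from that in stem for all 3 G-6-PDH probe sets, by a test of the difference itself. The flag leaf change alone was not called with any probe set. The flag leaf change from stage 49 to 75 minus the stem change from stage 59 to 75 was 1.08 with the 3′, 1.60 with the middle and 1.89 with the 5′ probe set (limma adjusted p = 0.00230, 2.21e-04 and 1.64e-05). Mean hybridization spike signal, which ranged from 10.48 to 12.47 over all arrays, also differed between these groups, and its part was not tested. Centring on the spikes moved the median of all probe sets in this comparison by 0.67, and the differences were then 1.75, 2.27 and 2.56 with the 3′, middle and 5′ probe sets. Among the 5 flag leaf arrays at stage 49, no array stood far from the others by Dixon's criterion with any probe set.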

How the results depend on the processing

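Of 72 G-6-PDH results, 23 were called, and 17 of these kept their direction and call in every alternative, replicates left out included. No called difference changed sign. Stricter p, the filter on low values, trended and robust variances and fits on the compared groups alone changed no call or sign.

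Without a fold limit, these passed too: the middle stem stage 45 minus 21 (0.95), the 3′ stem stage 75 minus 59 (−0.82), embryo against the other seed tissues (0.43, 0.61 and 0.54 for 3′, middle and 5′), endosperm likewise (0.50, 0.63 and 0.81), and with the 5′ probe set pericarp minus endosperm (−0.94), embryo minus pericarp (0.72) and seed minus vegetative (0.26). Median centring turned the 5′ stem stage 75 minus 21 (0.00667) and the 3′ seed minus vegetative (0.0021).

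Spike centring moved the median of all probe sets by up to 0.70. It brought over the fold limit the middle stem stage 45 minus 21 (1.11), the 3′ stem stage 75 minus 59 (−1.11), the middle embryo difference (1.03), the 5′ pericarp minus endosperm (−1.08) and the 5′ embryo minus pericarp (1.12). It turned uncalled differences: flag leaf stage 49 minus leaf stage 23 (−0.11 for 3′, −0.10 for middle), middle flag leaf stage 85 minus 49 (0.0877), 5′ stem stage 75 minus 21 (0.0413), embryo minus endosperm (0.19, 0.24 and 0.0367 for 3′, middle and 5′) and seed minus vegetative (0.22 for 3′, 0.18 for middle).

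Centring on actin, ef1a and gapdh moved the median by up to 0.39 in size, ended the calls of root minus coleoptile with 3′ (0.85) and middle (0.99) and of the middle stem stage 75 minus 59 (−0.998), and turned the 5′ leaf stage 23 minus 13 (0.0011), the middle flag leaf stage 85 minus 49 (0.0532), the middle stem stage 59 minus 45 (−0.0539) and the 5′ stem stage 75 minus 21 (0.0161). Quantile normalization ended the middle stem stage 75 minus flag leaf stage 75 (0.98) and the 3′ flag leaf minus stem change (0.98), and turned embryo minus endosperm with 3′ (0.00462) and middle (0.0456). Array weights turned the middle one too (0.0231). Leaving out crease, chosen after seeing the data, gave seed minus vegetative values of 0.32 (3′) and 0.28 (middle). The cause of these changes was not tested.

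With 1 array left out, the ranges were, for results whose call or sign moved: for leaf stage 23 minus 13, −0.67 to 0.0617 (3′), −0.69 to 0.16 (middle) and −0.44 to 0.32 (5′), for embryo minus endosperm, −0.18 to 0.0333 (3′) and −0.14 to 0.19 (middle), for stem stage 45 minus 21, 0.84 to 1.06 (middle) and 0.96 to 1.3 (5′), for the middle stem stage 59 minus 45, −0.03 to 0.19, for the 5′ stem stage 75 minus 21, −0.07 to 0.055, for the middle stem stage 75 minus flag leaf stage 75, 1 to 1.08, for the 3′ flag leaf minus stem change, 0.90 to 1.19, for the 5′ pericarp minus endosperm, −1.17 to −0.71, for the middle pericarp difference, −0.30 to 0.0413, and for the 3′ seed minus vegetative, −0.0517 to 0.0147.

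Same replicate numbers did not pair samples: over 331 pairs of arrays with equal numbers the median correlation of deviations was 0.0012, and 8 of 48 arrays matched their own number best. A fit with the replicate number as a block changed none of the 72 results, with root minus coleoptile at 1.16 for 3′, and the 3′, middle and 5′ probe sets called in 75, 73 and 64 of 120 pairs. Without the fold limit those counts were 83, 84 and 76.

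Counts over all probe sets moved by over 1.5 times without the fold limit in 23 of 24 comparisons. Other settings did so in the following. Leaf stage 23 minus 13 had 1203 calls, with 777 at an adjusted p under 0.01, 769 under spike centring, 1846 with array weights and 13 on those groups alone. Flag leaf stage 49 minus leaf stage 23 had 1390, with 2330 under array weights and 169 alone. Flag leaf stage 85 minus 75 had 12, with 0 to 49. Spike centring gave 5174 for flag leaf stage 75 minus 49, against 2556, and 12573 for the flag leaf minus stem change, against 7981. The 5′ signal near background limits leaf and crease values.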
